A study of Mus musculus with 18 samples.

Results

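The libraries described here are the 3 taken from mouse kidney tubule cells on day 2 of primary culture, set against the 3 taken at isolation on day 0. They are 6 of the 18 libraries of a time course over 6 sampled days, and they were chosen by their titles, replicates A, B and C of each day. The day 2 group held wild-type primary cells from kidneys of 6-week-old female C57BL/6 mice (C57BL/6J in the growth protocol), which had grown on ordinary culture plastic for 2 days without subculture or treatment. The day 0 group held the tubules of the same source, after collagenase digestion and a Percoll gradient and before growth in culture. Both groups are labelled wild type. The replicates are labelled biological, but whether a letter stands for a separate animal, a pool of animals or a dish is not said. The p-values here therefore measure only the spread between samples of a day, estimated over all 18 libraries of the series. The 3 libraries of day 1, prepared in the same way, are given where they show when a change took place.

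The proximal tubule takes back most of the sodium, phosphate, glucose, amino acids and protein that the glomerulus filters, and it secretes organic anions and drugs. Its cells drive this work with sodium pumps on the blood side, burn fatty acids in dense mitochondria, make glucose and rarely divide. After injury, and when plated on plastic, surviving cells flatten, lose transporters and enter the cell cycle, and proteins such as KIM-1 (the product of Havcr1) and keratins appear.

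Messenger RNA was sequenced, and levels are CPM values, the estimated count of a gene in proportion to the scaled total of its library, with TMM scaling, which sets the libraries so that most genes keep their level. Totals were 29445959, 24350985 and 27319419 counts in the day 2 libraries A, B and C and 27659894, 37579097 and 25085362 counts in the day 0 libraries. Mitochondrially encoded genes took 1.56% to 1.90% of the counts on day 2 and 3.93% to 5.73% on day 0. All values are listed for replicates A, B and C in that order. Over 18754 tested genes, each library was compared with the day 0 mean, which for a day 0 library left that library out. The mean absolute difference on the log2 scale was 0.249, 0.260 and 0.278 in the day 0 libraries. It was 1.23, 1.13 and 1.29 in the day 1 libraries and 1.38, 1.44 and 1.49 in the day 2 libraries. No pair of libraries within a day agreed within sampling noise.

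The proximal tubule label was checked against 12 defining markers, whose CPM summed to 1637, 843 and 1041 on day 2 and to 26226, 28277 and 25627 on day 0. Against day 0, 11 of the 12 fell and Cdh6, a cadherin, did not pass. The day 0 libraries also held transcripts of later nephron segments. Markers of the loop of Henle and distal tubule summed to 195, 101 and 108 CPM on day 2, against 11196, 9185 and 10099 CPM on day 0. In bulk RNA, fewer cells of a type and less RNA of a gene per cell cannot be told apart, and this holds for every difference below.

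The 4 genes that mark this stage moved in different ways. Rrm2, the small subunit of ribonucleotide reductase, which makes the building blocks of DNA, had 184, 375 and 285 CPM on day 2, against 12.4, 8.90 and 11.6 CPM on day 0. All day 2 libraries lay above all day 0 libraries, and replicate A was the lowest of day 2. The log2 fold change was 4.68 ± 0.37 (± SE; edgeR quasi-likelihood, Benjamini-Hochberg adjusted p = 1.30e-08), and on day 1 the gene was still at 9.83, 15.5 and 20.2 CPM. Krt19, a keratin of ducts and of regenerating epithelia, had 203, 215 and 184 CPM on day 2, against 1.09, 0.864 and 1.64 CPM on day 0. The groups were far apart and each was narrow, with a log2 fold change of 7.34 ± 0.21; day 1 had already reached 147, 167 and 156 CPM, and day 2 against day 1 did not pass the test. Il24, a cytokine of the interleukin-10 family, had 45.1, 37.0 and 42.8 CPM on day 2 and no count in any day 0 library. G6pc, the catalytic subunit of glucose-6-phosphatase, which releases free glucose, had 2.71, 1.72 and 1.15 CPM on day 2, against 1131, 1365 and 903 CPM on day 0. The groups did not overlap, the log2 fold change was -9.19 ± 0.58, and the 3 day 1 libraries lay between them at 59.5, 113 and 23.5 CPM.

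**Figure D1:**
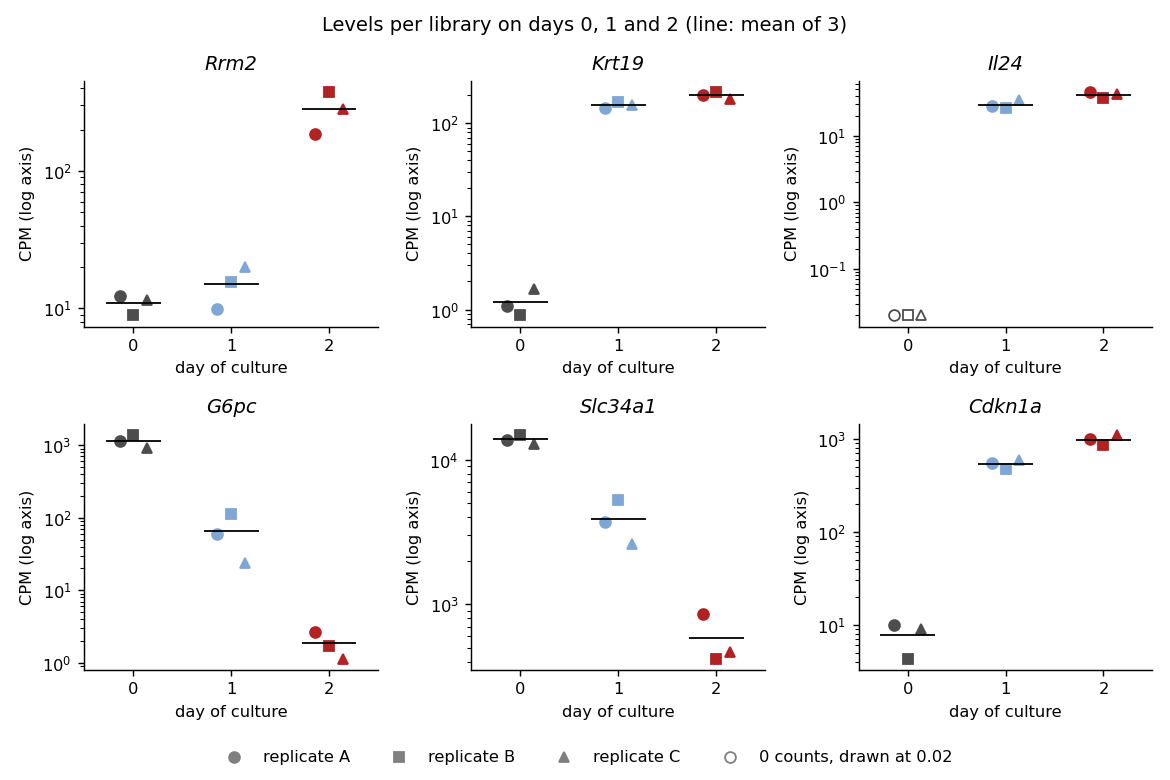
CPM (log axis) of 6 genes in each library on days 0, 1 and 2 of culture; symbols mark replicates A, B and C, lines the mean of 3 libraries, and open symbols 0 counts. Krt19 and Il24 stood near their day 2 levels on day 1 and Cdkn1a somewhat below its own, while Rrm2 was still close to its day 0 level on day 1 and G6pc and Slc34a1 stepped down on both days.

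Over all genes, a large part of the transcriptome differed. Of 18754 tested genes, 13908 (74.2%) passed an adjusted p of 0.05 by edgeR's quasi-likelihood test with Benjamini-Hochberg adjustment, 7289 (38.9%) of them higher on day 2 and 6619 (35.3%) lower. For 14846 genes (79.2%) the 3 day 2 libraries and the 3 day 0 libraries did not overlap. The split depends on the scaling: with library sizes alone 9894 genes were higher and 4802 lower, and with limma on log2(TPM + 1) 9432 and 3877; these scalings shift the all-gene median of the log2 fold change upwards by 0.51 and 0.55. Directions below are relative to TMM. Against day 1, 6469 genes (34.5%) passed on day 2, 3186 (17.0%) higher and 3283 (17.5%) lower. With predicted genes set aside, and for called genes that reached 10 CPM in the higher group and whose libraries did not overlap, the 10 largest rises over day 0 were Havcr1, Fosl1, Prl2c2, Krt20, Cpa4, Prl2c3, Flnc, Il1rn, Sprr2f and Ccl20. Fosl1, Prl2c2, Cpa4 and Prl2c3 had no day 0 count and Sprr2f and Ccl20 only 1, so their place in this order is uncertain. The 10 largest falls were G6pc, Nat8f6, Pck1, Keg1, Egf, Cndp1, Cckar, Tmem174, Nat8f3 and Acnat2. Several of these encode tubule enzymes, Egf is a product of the distal tubule, and Cckar is a receptor for cholecystokinin. Prl2c2 and Prl2c3, and Nat8f6 and Nat8f3, belong to families of near-identical copies among which reads may have been split, so their values are uncertain.

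Gene lists of differentiated tubule functions were described by the percent of the day 0 level that remained on day 2, over members with a mean of at least 10 CPM on day 0. Over all 9714 tested genes at that level, the median retained on day 2 was 88.7% (136% in TPM). Over 288 genes of 12 differentiated lists it was 9.72% (15.1% in TPM), and of 300 tested members 278 fell and 6 rose (14 rose with library sizes alone). Among these 288 genes, 24 kept at least 50% and 99 were below 5%. The loss was unequal between functions. Median retention was lowest for apical sodium-coupled and exchange transporters at 3.02% and highest for apical endocytosis at 29.5%, with the nuclear-encoded respiratory chain beside it at 29.0%.

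**Figure D2:**
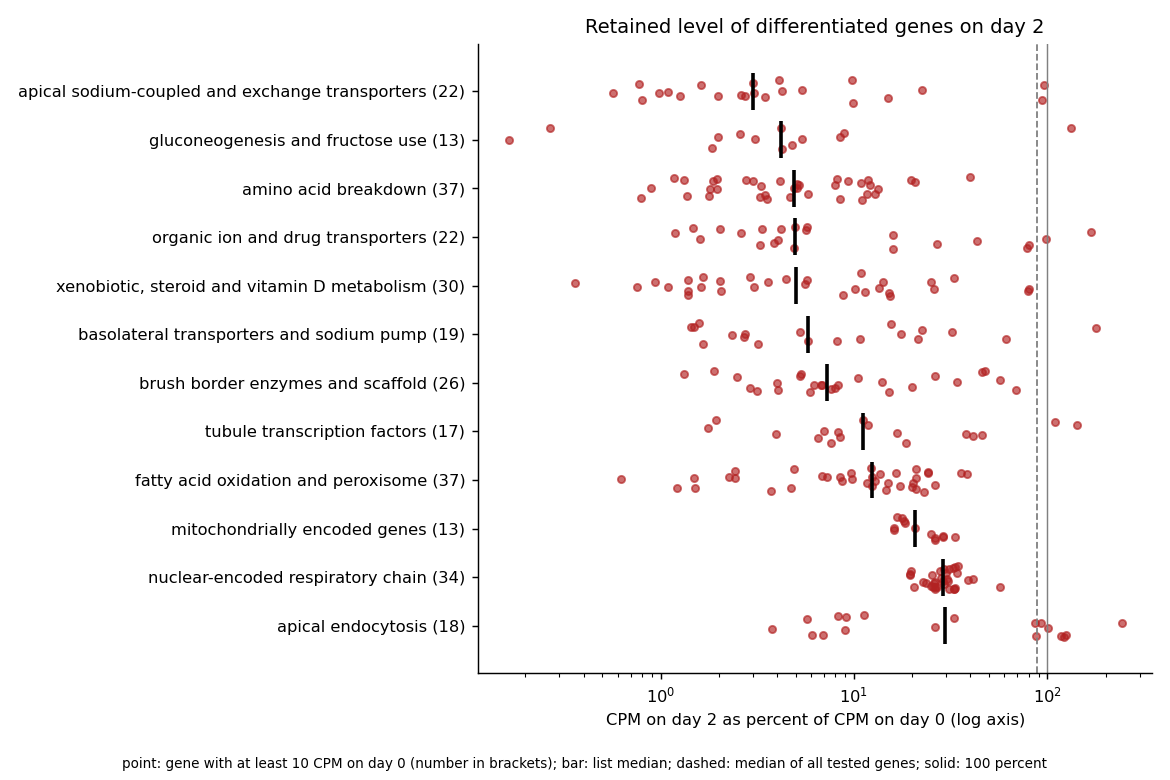
Mean CPM on day 2 as a percent of the day 0 mean (log axis) for each gene of 12 differentiated lists with at least 10 CPM on day 0; bars are list medians, the dashed line is the median of all tested genes (88.7%) and the solid line 100%. Transporter and gluconeogenesis genes spread from below 1% to above 90%, while the respiratory chain genes crowd around 29.0% and endocytosis genes spread from below 5% to above 100%.

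Among the apical transporters, which move solutes from urine into the cell on the sodium gradient, 20 of 22 tested members fell and none rose, with a median log2 fold change of -5.01 against 0.13 over all tested genes. Slc34a1, the main renal sodium-phosphate cotransporter, had 863, 422 and 468 CPM on day 2, against 13738, 14671 and 12849 CPM on day 0. All day 2 libraries were far below all day 0 libraries, and day 2 replicate A stood above B and C. The log2 fold change was -4.56 ± 0.35 (edgeR quasi-likelihood, Benjamini-Hochberg adjusted p = 7.48e-09), so that 4.25% of the day 0 mean was left, after 28.1% on day 1. Slc5a2, the sodium-glucose cotransporter SGLT2 of the early tubule, kept more, with 238, 144 and 156 CPM on day 2 against 1750.0, 1971 and 1761 CPM on day 0. This was 9.83% of the day 0 mean, and again replicate A was the highest of day 2. The lowest retention was that of Slc5a8, a sodium-coupled carrier of lactate and other monocarboxylates, with 1.11, 0.635 and 0.876 CPM on day 2 against 159, 186 and 120.1 CPM on day 0. Slc7a9, the light subunit of the cystine transporter, was left at 0.771% and Slc13a2, a citrate carrier, at 1.09%. The members with the smallest adjusted p were Slc26a6, an anion exchanger (log2 fold change -2.71 ± 0.14), Slc6a20b, an imino acid transporter (-5.92 ± 0.29), and Slc15a2, a peptide transporter (-4.99 ± 0.25). The water channel Aqp1 had 26.2, 13.4 and 16.1 CPM on day 2, against 692, 682 and 663 CPM on day 0. Its day 2 libraries were all far below day 0. The members that did not pass were Slc36a1, a proton-coupled amino acid transporter also found in lysosomes, with 20.9 and 21.7 CPM on average on days 2 and 0, and Slc20a2. Slc20a2 is a phosphate transporter present in many tissues, and it had 70.5, 75.3 and 69.1 CPM on day 2, against 77.1, 71.6 and 79.1 CPM on day 0, with overlapping groups.

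On the blood side, 18 of 20 tested transporters and pump subunits fell and 1 rose (median log2 fold change -3.83, median retention 5.81%). Slc2a2, the glucose transporter GLUT2, had 19.6, 9.19 and 14.8 CPM on day 2, against 556, 541 and 524 CPM on day 0. Slc6a13, a carrier of GABA and taurine, was left at 1.48% and Slc43a2, an amino acid efflux transporter, at 10.7%. Both fell without overlap of the libraries, with log2 fold changes of -6.01 ± 0.32 and -3.22 ± 0.14. Slc16a1, the monocarboxylate transporter MCT1, was the only member that rose, with 170.3, 159 and 168 CPM on day 2 and 118, 67.5 and 93.7 CPM on day 0. The groups did not overlap, and at 178% (266% in TPM) it was the best kept of all differentiated genes with at least 50 CPM on day 0. Slc6a12, a betaine carrier with 1.78 and 1.203 CPM on days 2 and 0, did not pass.

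The organic ion and drug transporters split into carriers that fell and pumps that did not all fall. Of 23 tested members 19 fell and 1 rose (median -4.35, median retention 4.93%). Slc22a6, the organic anion transporter OAT1, had 12.2, 5.34 and 9.94 CPM on day 2, against 719, 879 and 719 CPM on day 0. The libraries of the days were far apart, and the 3 day 1 libraries still held 139, 237 and 119 CPM. Slc22a12, the urate transporter URAT1, was left at 1.47% (log2 fold change -6.07 ± 0.33) and Slc22a2, the organic cation transporter OCT2, at 1.61% (-5.93 ± 0.32). Abcg2, an efflux pump that also carries urate, fell less, to 148, 129 and 168 CPM on day 2, against 927, 930.0 and 939.6 CPM on day 0. The efflux pump Abcc4 (MRP4) went the other way, with 300.02, 348 and 272 CPM on day 2 and 192, 187 and 166 CPM on day 0. Its day 2 libraries lay above every day 0 library but below the day 1 mean of 423 CPM, a fall that passed the test of day 2 against day 1. Abcc2, Abcb1a and Abcb1b, efflux pumps of the same superfamily, did not pass against day 0. Abcc2 was nonetheless left at 43.4%, with means of 274, 517 and 119 CPM on days 0, 1 and 2. Its call against day 0 changed in 2 of 22 alternative settings.

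Genes for the uptake of filtered protein differed widely in retention. Of 18 tested members 10 fell and 3 rose (median log2 fold change -1.77), and 8 rose with library sizes alone. Lrp2, the receptor megalin, had 33.0, 22.6 and 34.3 CPM on day 2, against 516, 604 and 367 CPM on day 0. Cubn, its partner cubilin, had 11.7, 7.43 and 9.13 CPM on day 2, against 244, 337 and 166 CPM on day 0. Both groups were widely separated, and 6.04% and 3.79% of the day 0 means were left. Of other members that fell, Dab2, an adaptor of megalin, was left at 9.11%, Lrpap1, the chaperone of megalin, at 11.3% and Fcgrt, the neonatal Fc receptor that salvages albumin, at 6.94%. Cltc, the clathrin heavy chain, had 636, 611 and 584 CPM on day 2 and 532, 526 and 447 CPM on day 0. Its day 2 libraries all lay above day 0 and the gene was called higher (log2 fold change 0.28 ± 0.11). That call is lost with DESeq2 size factors (0.18) and without day 0 replicate C (0.20) or day 2 replicate B (0.29). Gipc1, an adaptor for the motor that moves endocytic vesicles, had 78.2, 79.2 and 71.1 CPM on day 2 and 60.3, 58.7 and 64.1 CPM on day 0. It rose without overlap of the groups. The members that did not pass were Clcn5, the endosomal chloride-proton exchanger whose loss causes Dent disease in humans, Rab11a of recycling endosomes, Ap2a1 of the clathrin adaptor, Ocrl, a lipid phosphatase, and Ehd1 of recycling. Clcn5 had 139.8, 142 and 143 CPM on day 2 and 142, 148 and 131 CPM on day 0, which overlap. Rab11a had 285, 283 and 302 CPM on day 2 and 244, 256 and 243 CPM on day 0, with a log2 fold change of 0.23 ± 0.10 (edgeR quasi-likelihood, Benjamini-Hochberg adjusted p = 0.0518).

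The brush border, the carpet of microvilli on the urine side, showed a loss of every tested member, all 27, with a median log2 fold change of -3.72 and median retention of 7.21%. Mep1a, the peptidase meprin, had 22.2, 11.9 and 18.1 CPM on day 2, against 548, 561 and 549.6 CPM on day 0, and Dpep1, a membrane dipeptidase, 22.9, 13.0 and 15.2 CPM on day 2 against 285, 280.1 and 295 CPM on day 0. Pdzk1, the scaffold that ties phosphate and other transporters to the microvillus, was left at 1.32% with 42.0, 19.3 and 25.8 CPM on day 2 against 2146, 2470.4 and 1969 CPM on day 0. Among the better kept members, Ezr, the actin-membrane linker ezrin, had 579, 564 and 549.6 CPM on day 2 and 843, 812 and 797 CPM on day 0, so that 69.0% was left, and Slc9a3r1, the NHERF1 scaffold, kept 47.6%. Their groups did not overlap either, but the fall of Ezr depends on the scaling: its log2 fold change was -0.54 with TMM and 0.05 with limma on log2(TPM + 1). Both were chosen for mention after their values were seen.

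Tubule transcription factors fell in 18 of 21 tested cases and 1 rose (median -3.06). Hnf4a, the nuclear receptor that drives proximal tubule maturation in mice, had 14.2, 7.92 and 13.8 CPM on day 2, against 649, 627 and 568 CPM on day 0. It was down to 1.94% without overlap, after 9.98% on day 1. Maf, a bZIP factor, had 3.15, 1.79 and 2.80 CPM on day 2, against 138, 150.5 and 150.2 CPM on day 0. Rxra, the partner of many nuclear receptors, kept more, 38.1%. Pax8, which is needed to form the kidney and persists in tubule cells, had 125, 109 and 97.8 CPM on day 0, 266, 293 and 295 CPM on day 1 and 149.8, 157 and 167 CPM on day 2. It was highest on day 1, and on day 2 all libraries were still above all of day 0 (log2 fold change 0.51 ± 0.21; edgeR quasi-likelihood, Benjamini-Hochberg adjusted p = 0.0388). That call is lost with DESeq2 size factors (0.41), without day 0 replicate B (0.50) or C (0.43) and without day 2 replicate B (0.52) or C (0.48). Pax2 and Foxc1, factors of kidney development, did not pass.

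Metabolic genes fell almost without exception. Of gluconeogenesis and fructose use, 12 of 13 fell and none rose (median log2 fold change -4.57). Pck1, the rate-limiting enzyme of glucose formation, had 4197, 5423 and 3127 CPM on day 0, 374, 836 and 181 CPM on day 1 and 18.9, 6.05 and 9.13 CPM on day 2. Each step was without overlap, and with 0.267% left it had the second-lowest retention after G6pc among differentiated genes with at least 50 CPM on day 0. Fbp1, a further enzyme of the pathway, was left at 2.58%, Tkfc of fructose use at 5.39% and Glyctk, glycerate kinase, at 1.97%. The member that did not pass was Pck2, the mitochondrial form of the Pck1 enzyme, with 19.3, 46.9 and 44.9 CPM on day 2 and 27.5, 28.1 and 27.8 CPM on day 0. Its day 2 libraries were spread widely and overlapped day 0.

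Fatty acid oxidation and peroxisome genes fell in all 37 tested cases (median -3.01). Cpt2 and Etfdh, of mitochondrial fatty acid use, kept 12.4% and 20.8%, and Acsl1, which activates fatty acids, 6.82%. Amino acid breakdown genes fell in all 38 cases (median -4.38), among them Fah, the last enzyme of tyrosine breakdown (3.55% left), and Ass1 and Asl, which make arginine in the kidney (5.23% and 9.31%). Xenobiotic, steroid and vitamin D genes fell in 32 of 34 cases (median -3.99). Akr1a1, an aldehyde reductase, and Gpx1, a glutathione peroxidase, kept 15.4% and 15.2%, and Aldh8a1, an aldehyde dehydrogenase, 0.754%. Cyp7b1 and Ephx1 did not pass.

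The respiratory chain was lost less. All 34 tested nuclear-encoded members and all 13 mitochondrially encoded genes fell, with median log2 fold changes of -1.78 and -2.27. Ndufb10 of complex I had 60.2, 56.6 and 58.3 CPM on day 2, against 295, 278 and 286 CPM on day 0, Cox6c of complex IV 169.8, 143 and 179 CPM on day 2 against 721, 728 and 708 CPM on day 0, and Ndufa4 207, 194 and 208 CPM on day 2 against 650.2, 663 and 646 CPM on day 0. The libraries of a day were alike and the days far apart. From the mitochondrial genome, mt-Nd1 had 1185, 1179.9 and 1183 CPM on day 2, against 5200.5, 5838 and 6064 CPM on day 0, mt-Co2 kept 16.2% and mt-Cytb 16.8%. In TPM the nuclear-encoded members kept a median of 42.7%.

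Retention on day 1 and on day 2 shows which genes went first; both days are set against the same 3 day 0 libraries, so the values are given side by side. Among differentiated genes with at least 50 CPM on day 0, the lowest on day 1 was Cyp24a1, the hydroxylase that inactivates vitamin D. It had 181, 140.1 and 209 CPM on day 0, 1.24, 2.52 and 1.63 CPM on day 1 and 1.69, 1.31 and 1.99 CPM on day 2. Days 1 and 2 were both far below day 0, and day 2 against day 1 did not pass the test. Next came G6pc (5.78% on day 1), Maf (7.12%), Kl, the co-receptor klotho (8.14%), Gatm, which makes the creatine precursor (8.15%), Kcnj16, a basolateral potassium channel subunit (8.30%), Pxmp2, a peroxisomal membrane channel (8.37%), and Keg1, of the glycine acyltransferase family (8.39%). Kl had 32.4, 22.4 and 22.4 CPM on day 2, against 1461, 1580.3 and 1609.5 CPM on day 0, and Gatm 91.5, 48.3 and 78.5 CPM on day 2 against 5450.3, 5747 and 5343 CPM on day 0. Pxmp2, like Cyp24a1, did not pass between day 2 and day 1.

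Some genes fell steeply again between day 1 and day 2, among them G6pc and Keg1, which were already low on day 1. The ratio of day 1 to day 2 means was 40.9 for Pck1, 35.3 for G6pc, 23.1 for Keg1, 21.5 for Slc5a8, 21.5 for Hpd of tyrosine breakdown, 21.4 for Cyp2e1, a cytochrome P450, and 20.1 for Slc13a2. Cyp2e1 had 197, 166 and 79.4 CPM on day 0, 46.3, 67.2 and 18.3 CPM on day 1 and 4.04, 1.01 and 1.11 CPM on day 2, and Hpd 389.8, 231 and 136 CPM on day 0, 79.4, 81.3 and 30.0 CPM on day 1 and 5.83, 0.709 and 2.32 CPM on day 2. For both, day 2 replicate A held more than B and C. Across the 3 transporter lists, 54 of 65 tested members fell between day 1 and day 2 and none rose, and the summed CPM of these lists was 49452, 51015 and 46063 on day 0, 13316, 17707 and 11008 on day 1 and 5205, 4004 and 4599 on day 2. Of 300 tested members of all differentiated lists, 241 fell and 4 rose against day 1. Among differentiated genes with at least 50 CPM on day 0, those with the highest retention on day 2 besides Slc16a1, Abcc4 and Pax8 were Gipc1 (125%), Cltc (122%), Rab11a (117%), Clcn5 (101%) and Slc20a2 (94.3%).

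**Figure D3:**
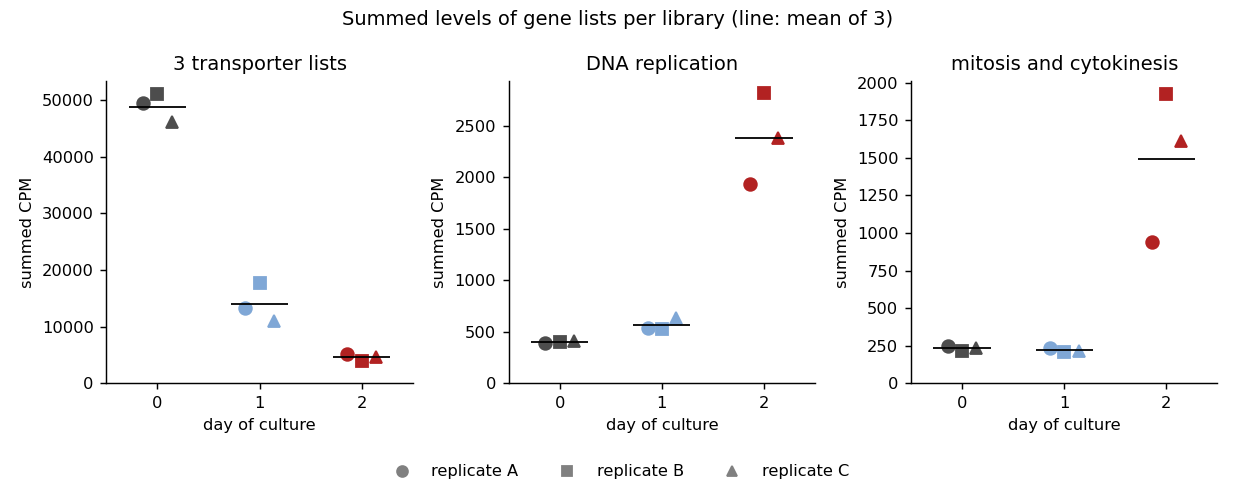
Summed CPM of 3 gene lists in each library on days 0, 1 and 2 of culture, from 0; symbols mark replicates A, B and C and lines the mean of 3. Transporters stepped down on both days to between 4004 and 5205 CPM on day 2, while the replication and mitosis lists stayed low on day 1 and stood at 1939.5 to 2814 and 943 to 1926 CPM on day 2.

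Cell division genes were much higher on day 2. Of 35 tested genes of DNA replication and nucleotide synthesis, 34 rose and none fell against day 0 (median log2 fold change 2.39), and all 35 rose against day 1. Their summed CPM was 395, 396 and 411 on day 0, 539.6, 522 and 631 on day 1 and 1939.5, 2814 and 2381 on day 2. Mcm5, a subunit of the replicative helicase, had 96.8, 155 and 119 CPM on day 2, against 7.76, 7.17 and 9.19 CPM on day 0. Uhrf1, which carries DNA methylation through replication, had 91.0, 136 and 123 CPM on day 2, against 3.31, 2.52 and 3.70 CPM on day 0, and Chaf1b, a histone chaperone, 30.5, 43.5 and 38.6 CPM on day 2 against 1.85, 2.45 and 3.13 CPM on day 0. In all 3 genes the days did not overlap and replicate B was the highest of day 2. Pcna, the sliding clamp, had 35.3, 33.3 and 35.0 CPM on day 0, 67.8, 67.3 and 68.9 CPM on day 1 and 123, 140.0 and 141 CPM on day 2, and so was already up on day 1. Tyms, thymidylate synthase, was the member that did not pass against day 0, with 35.4, 37.1 and 32.0 CPM on day 0, 14.5, 16.0 and 15.3 CPM on day 1 and 35.3, 51.6 and 42.7 CPM on day 2.

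Of 36 tested genes of mitosis and cytokinesis, 34 rose and 1 fell against day 0 (median log2 fold change 4.12), and 34 rose against day 1. Summed CPM was 250.5, 218 and 235 on day 0, 237, 209 and 218 on day 1 and 943, 1926 and 1612 on day 2. Mki67, the proliferation marker Ki-67, had 3.74, 1.55 and 1.80 CPM on day 0, 1.03, 0.813 and 1.197 CPM on day 1 and 25.8, 64.7 and 54.3 CPM on day 2. Ccnb1, cyclin B1, which starts mitosis, had 3.79, 1.58 and 2.62 CPM on day 0, 1.13, 0.471 and 1.23 CPM on day 1 and 30.6, 81.5 and 67.6 CPM on day 2. In both genes day 2 stood above the other days, and day 1 below day 0. Tpx2, a spindle assembly factor, came earlier, with 2.27, 1.19 and 2.05 CPM on day 0, 39.8, 33.0 and 25.5 CPM on day 1 and 45.0, 75.7 and 69.2 CPM on day 2. Pttg1, securin, which holds back the separation of sister chromatids until anaphase, was the member that fell, with 28.6, 26.0 and 25.8 CPM on day 2, against 81.4, 81.0 and 79.6 CPM on day 0. Cdc25b, a phosphatase that activates mitotic CDK1, did not pass. Under the limits set above for the largest changes over day 0, the 5 largest rises between day 1 and day 2 were Cenpf, of the kinetochore, Bub1, a spindle checkpoint kinase, Ckap2l, a spindle protein, Iqgap3, a scaffold of dividing cells, and Ube2c, which marks cyclins for destruction. Cenpf had 1.33, 0.972 and 1.39 CPM on day 0, 0.177, 0.171 and 0.181 CPM on day 1 and 10.5, 30.0 and 22.0 CPM on day 2, and Ube2c 2.13, 0.936 and 1.85 CPM on day 0, 0.991, 0.471 and 0.725 CPM on day 1 and 23.0, 63.5 and 55.6 CPM on day 2.

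Day 2 replicate A differed from B and C in these lists, with the lowest sums for replication and mitosis and the highest for the transporters. The medians of the transporter, replication and mitosis lists kept their sign with each of the 3 day 2 and 3 day 0 libraries left out in turn.

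Promoters of replication genes are known for E2F sites and those of mitosis genes for a CHR element next to CCAAT boxes, so 3 windows are shown, Mcm5 for replication and Ube2c and Cenpf for mitosis. Each is a RefSeq window of GRCm38.p6 on the gene's own strand, from 250 bases before to 50 after the start: Mcm5 at chr8:75109259-75109558 (plus), Ube2c at chr2:164769679-164769978 (plus) and Cenpf at chr1:189688037-189688336 (minus). Capitals mark, on either strand, the E2F sequences TTTGGCGC and TTTCCCGC, the CHR sequence TTTGAA and the sequence CCAAT.
Mcm5: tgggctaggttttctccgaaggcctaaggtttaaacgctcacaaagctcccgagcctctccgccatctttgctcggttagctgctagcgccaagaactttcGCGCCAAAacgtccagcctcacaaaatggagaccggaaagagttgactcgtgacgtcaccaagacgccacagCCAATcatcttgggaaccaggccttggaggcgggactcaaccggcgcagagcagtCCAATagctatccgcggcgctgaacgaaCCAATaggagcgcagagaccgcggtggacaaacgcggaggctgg
Ube2c: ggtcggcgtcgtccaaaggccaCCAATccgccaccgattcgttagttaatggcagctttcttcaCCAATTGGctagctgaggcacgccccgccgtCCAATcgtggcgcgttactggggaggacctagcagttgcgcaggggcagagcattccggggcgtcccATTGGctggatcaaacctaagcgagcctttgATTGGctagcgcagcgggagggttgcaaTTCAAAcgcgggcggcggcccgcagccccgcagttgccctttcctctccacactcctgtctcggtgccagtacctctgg
Cenpf: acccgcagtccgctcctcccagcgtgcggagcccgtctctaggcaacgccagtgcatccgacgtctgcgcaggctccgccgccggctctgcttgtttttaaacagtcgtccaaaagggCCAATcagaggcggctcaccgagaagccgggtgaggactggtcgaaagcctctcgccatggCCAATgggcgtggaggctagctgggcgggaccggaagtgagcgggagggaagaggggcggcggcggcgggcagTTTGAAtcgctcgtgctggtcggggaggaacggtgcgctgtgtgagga
An E2F sequence was present in 8 of 31 replication genes with a window (25.8%) and in none of 30 mitosis genes, against 1.63% of all 27025 genes with a window. CHR together with CCAAT was present in 18 of 30 mitosis genes (60%) and 5 of 31 replication genes (16.1%), against 7.12% of all. These sequences do not overlap one another, although a CCAAT and its reverse can share letters, as in Ube2c.

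Control of entry into the cycle was mixed. Of 25 tested genes of G1 and S entry, 20 rose and 3 fell (median 1.47). Ccnd1, cyclin D1, had 103, 98.9 and 90.9 CPM on day 0, 47.7, 74.1 and 69.4 CPM on day 1 and 180.0, 260.0 and 202 CPM on day 2. It was lowest on day 1 and highest on day 2, without overlap between any of the days. Ccne1, cyclin E1, which drives entry into S phase, had 22.2, 29.2 and 26.5 CPM on day 2 and 0.615, 1.01 and 0.513 CPM on day 0; it was named after its values were seen. Cdk6, a partner of cyclin D, had 92.2, 92.9 and 121 CPM on day 2, against 12.8, 10.98 and 13.1 CPM on day 0, and Cdc25a, an activating phosphatase, 48.6, 51.6 and 46.4 CPM on day 2 against 19.3, 17.5 and 19.1 CPM on day 0. Ccnd3, cyclin D3, and Rb1, the retinoblastoma protein that restrains entry, fell, to 54.4% and 61.3% of day 0, for Rb1 not with library sizes alone. Ccnd2, cyclin D2, and Gmnn, geminin, did not pass.

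Inhibitors of the cycle were present beside it. Of 27 tested CDK inhibitors and p53 targets, 18 rose and 6 fell (median 1.62), and 3 fell with library sizes alone. Cdkn1a, the CDK inhibitor p21, had 9.99, 4.32 and 9.03 CPM on day 0, 557, 469.6 and 587 CPM on day 1 and 997, 856 and 1093 CPM on day 2. It stood higher on each later day without overlap, and the log2 fold change of day 2 was 6.98 ± 0.28 against day 0 and 0.87 ± 0.21 against day 1. Plk2, a p53-responsive kinase, had 479, 575 and 423 CPM on day 2, against 11.8, 16.1 and 13.1 CPM on day 0, and Mdm2, which limits p53, 357, 330.4 and 394 CPM on day 2 against 71.3, 75.3 and 69.0 CPM on day 0. Cdkn1c, the inhibitor p57, fell to 35.9% and Sesn1, sestrin 1, to 22.6% of day 0. Cdkn2a, the inhibitor p16, had no count in any library of days 0, 1 or 2, and Cdkn1b and Cdkn2d did not pass.

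**Figure D4:**
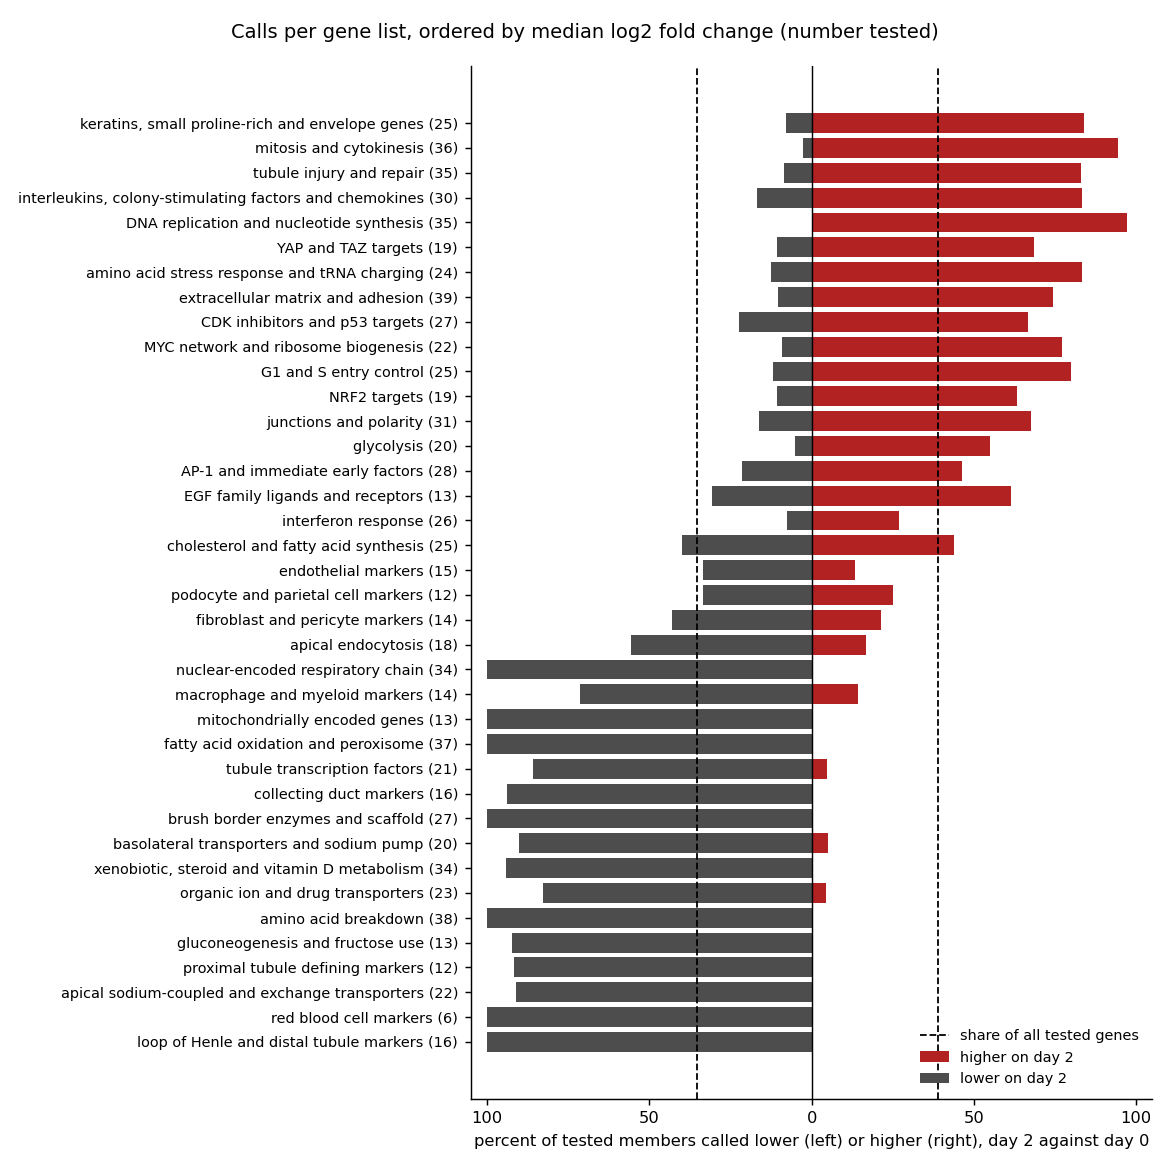
Percent of tested members of each gene list called lower (left) and higher (right) on day 2 against day 0, in order of median log2 fold change; dashed lines mark the shares of all tested genes (35.3% lower, 38.9% higher). Keratin, mitosis, injury, cytokine and replication lists stand at the higher end, and transporters, metabolism and distal tubule markers at the lower end.

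Genes of tubule injury and repair rose in 29 of 35 tested cases and 3 fell (median log2 fold change 3.79). Havcr1, which encodes KIM-1, a receptor by which injured tubule cells take up debris, had 0.0473, 0.180 and 0.257 CPM on day 0, 1583, 1208 and 2249 CPM on day 1 and 1279, 636 and 1602 CPM on day 2. It was barely detected on day 0, and day 2 replicate B held much less than A and C. Plaur, the urokinase receptor, had 514, 411 and 444 CPM on day 2, against 2.37, 2.92 and 2.62 CPM on day 0, and Tnfrsf12a, the TWEAK receptor, 783, 638 and 708 CPM on day 2 against 15.1, 16.2 and 12.8 CPM on day 0. Both were higher still on day 1, and the fall to day 2 passed the test. Anxa3, an annexin, had 8.71, 8.36 and 10.4 CPM on day 0, 365, 305 and 373 CPM on day 1 and 526, 489 and 525 CPM on day 2. Vim, vimentin, a filament protein of mesenchymal and dedifferentiated cells, had 239.8, 231 and 299.7 CPM on day 2, against 14.7, 17.97 and 16.1 CPM on day 0. Among the 3 members that fell, Spp1, osteopontin, had 2082, 2406 and 2503 CPM on day 2, against 4576, 5362 and 5680.1 CPM on day 0, and Prom1, CD133, 95.8, 85.4 and 77.3 CPM on day 2 against 493, 349.9 and 455 CPM on day 0. Clu, Dcdc2a and Cp did not pass.

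Keratins, small proline-rich proteins and other genes of the cornified envelope, best known from stratified epithelia such as skin, rose in 21 of 25 tested cases and 2 fell (median 5.21). Krt20, a keratin of gut and urothelium, had 0.142, 0.0720 and 0.103 CPM on day 0, 997, 1339 and 807 CPM on day 1 and 589, 329.7 and 507 CPM on day 2. Sprr1a had 0.142, 0 and 0.565 CPM on day 0, 1475, 1407 and 1229.5 CPM on day 1 and 456, 195 and 326 CPM on day 2. Both were highest on day 1 and fell to day 2. The crosslinking enzyme Tgm1 and the envelope protein Evpl were the members that fell against day 0, with log2 fold changes of -2.35 ± 0.25 and -1.48 ± 0.22, and Krt10 and Krt23 did not pass.

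Ligands of the EGF family, which drive tubule cell growth, moved in both directions. Of 13 tested ligands and receptors 8 rose and 4 fell (median 0.52), beside 38.9% higher and 35.3% lower over all tested genes. Egf itself, made in the distal tubule, had 16.3, 5.64 and 4.95 CPM on day 2, against 2878, 2534 and 1808 CPM on day 0. Tgfa, a ligand of the same receptor, had 4.59, 3.57 and 5.29 CPM on day 0, 13.3, 16.3 and 16.1 CPM on day 1 and 39.6, 44.8 and 34.3 CPM on day 2, and Hbegf 13.1, 17.6 and 19.9 CPM on day 0, 237, 248 and 192 CPM on day 1 and 219, 186 and 150.2 CPM on day 2. Tgfa stood higher on each later day without overlap, whereas Hbegf did not pass between day 2 and day 1. Nrg1, neuregulin, rose to 51.0 ± 4.996 CPM on day 2 against 10.7 ± 1.84 CPM on day 0 (SD, n = 3 each), and the receptor Erbb2 fell to 39.4% of day 0. Btc, the ligand betacellulin, did not pass.

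Interleukins, colony-stimulating factors and chemokines rose in 25 of 30 tested cases and fell in 5 (median 3.20, or 3.45 with members without a day 0 count set to their lower bound). Lif, a cytokine of the interleukin-6 family, had 0.426, 0.288 and 0.513 CPM on day 0, 34.6, 35.7 and 32.5 CPM on day 1 and 54.2, 59.3 and 48.7 CPM on day 2. Csf1, which sustains macrophages, had 5.92, 6.34 and 6.72 CPM on day 0, 212, 216 and 163 CPM on day 1 and 71.7, 71.1 and 71.1 CPM on day 2. Of these days it was highest on day 1. Il1rn, the antagonist of the interleukin-1 receptor, had 287, 397 and 312 CPM on day 2, against 0, 0 and 0.359 CPM on day 0. Those that fell included Cx3cl1, a membrane-bound chemokine (43.6% of day 0), and Il18 (0.533 and 2.62 CPM on average on days 2 and 0).

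A group of 33 genes was silent at isolation, with at most 3 counts in sum over the 3 day 0 libraries, and present on day 2 with a mean of at least 10 CPM and at least 1 CPM in every library. They were chosen by these values, so their rise is a description without a test. All were detected on day 1, and against day 1 16 were higher, 3 lower and 14 not called. Where no day 0 library held a count, the fold is a lower bound against 3 counts over the day 0 group. Fosl1, the AP-1 factor FRA-1, had 370.4, 253 and 326 CPM on day 2 and 672, 684 and 648 CPM on day 1, and on day 2 was at least 7210.2-fold above day 0. Its day 2 libraries all lay below those of day 1, a fall that passed the test. Il24 was at least 949-fold above day 0, and its 27.9, 25.8 and 34.8 CPM on day 1 were not called different from day 2.

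Several silent genes stood higher on day 2 than on day 1. Cpa4, a carboxypeptidase, had 162, 287 and 118 CPM on day 2 and 41.5, 30.1 and 35.8 CPM on day 1, with no count on day 0. Ccl20, a chemokine that attracts dendritic cells and lymphocytes, had 1 count on day 0, 13.5, 13.4 and 24.5 CPM on day 1 and 89.9, 190.2 and 166 CPM on day 2, a ratio of day 2 to day 0 of 12384 with a 95% counting interval from 2223 to 489127. Wnt7a, a secreted signal, had 118, 186 and 128 CPM on day 2 and 30.4, 29.1 and 39.2 CPM on day 1, with 2 counts on day 0. Serpinb9b, a protease inhibitor, had 42.8, 63.3 and 38.9 CPM on day 2 and 17.9, 13.1 and 15.2 CPM on day 1. Each of these 4 was called higher on day 2 than on day 1, as were the placental prolactin relatives Prl2c2, with 198, 330.5 and 359.9 CPM on day 2 and 26.7, 55.7 and 103 CPM on day 1, and Prl2c3, whose reads may have been split. Replicate A was the lowest day 2 library for Ccl20, Prl2c2 and Prl2c3.

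Some others stood on day 1 near their day 2 level or above it. Sprr2f, a small proline-rich protein, had 119, 129 and 224 CPM on day 2 and 139, 222 and 305 CPM on day 1, and Sprr2g 112, 147 and 129 CPM on day 2 and 108, 163 and 170.0 CPM on day 1. Neither was called different between these days, and near-identical copies make the single Sprr2 values uncertain. Hk2, the inducible hexokinase of the first step of glycolysis, had 38.01, 46.9 and 46.5 CPM on day 2 and 58.5, 73.2 and 79.4 CPM on day 1, with 2 counts on day 0. It and Sprr2h were the silent genes that, like Fosl1, fell against day 1. Among further secreted products of the 33 genes, Mmp10 averaged 33.7 CPM on day 2 and 32.9 CPM on day 1 and Slpi 22.4 CPM on day 2 and 10.02 CPM on day 1, and neither was called. Il1f6, with 40.7 CPM on day 2 and 19.7 CPM on day 1, and Timp1, with 16.0 CPM on day 2 and 5.81 CPM on day 1, were called higher on day 2. These 4 were chosen after their values were seen, as were Pcna above and Umod below.

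**Figure D5:**
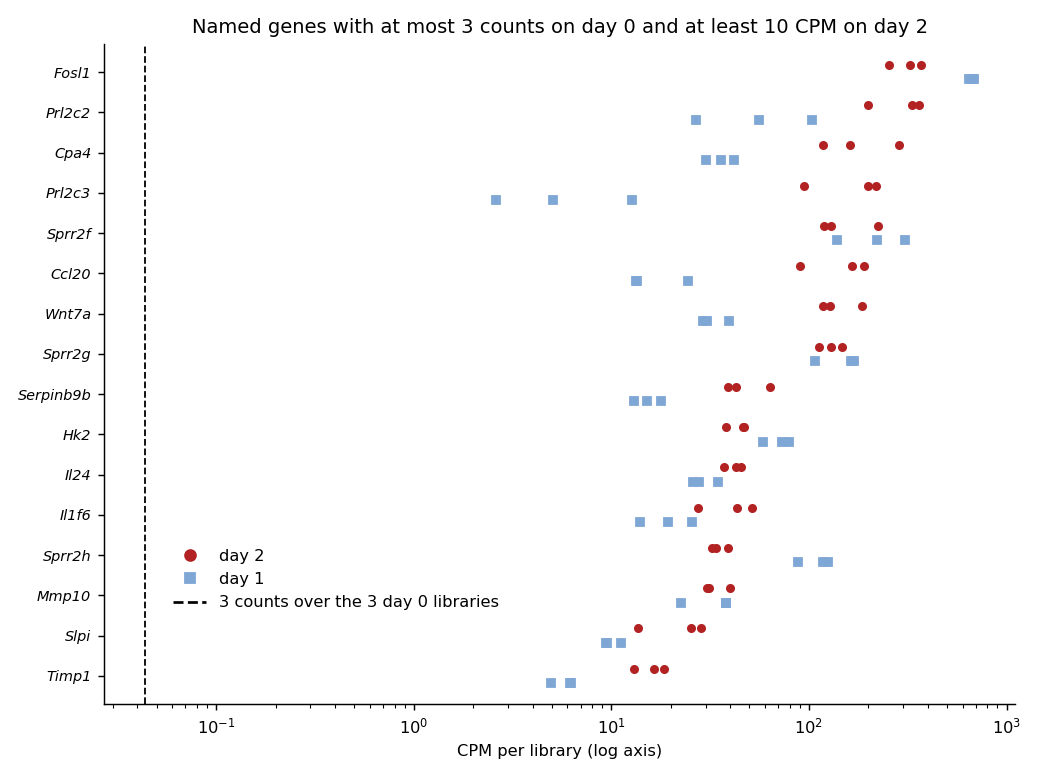
CPM (log axis) in each day 2 library (circles) and day 1 library (squares) of those genes, among the 33 silent at isolation, that the text names; the dashed line marks 3 counts over the day 0 libraries. Every point lies above that line, with day 2 above day 1 for Ccl20 and Wnt7a and below it for Fosl1, Hk2 and Sprr2h.

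The windows of Cpa4 and Sprr2f are shown because they hold the AP-1 sequence TGANTCA, which factors such as FRA-1 bind. They are RefSeq windows of GRCm38.p6 on the plus strand, chr6:30568119-30568418 for Cpa4 and chr3:92364937-92365236 for Sprr2f, and capitals mark the sequence.
Cpa4: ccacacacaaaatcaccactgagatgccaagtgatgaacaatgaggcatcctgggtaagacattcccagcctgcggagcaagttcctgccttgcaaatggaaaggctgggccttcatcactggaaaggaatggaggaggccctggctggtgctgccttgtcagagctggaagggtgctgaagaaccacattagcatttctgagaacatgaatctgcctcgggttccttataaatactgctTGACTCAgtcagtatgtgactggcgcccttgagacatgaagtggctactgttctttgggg
Sprr2f: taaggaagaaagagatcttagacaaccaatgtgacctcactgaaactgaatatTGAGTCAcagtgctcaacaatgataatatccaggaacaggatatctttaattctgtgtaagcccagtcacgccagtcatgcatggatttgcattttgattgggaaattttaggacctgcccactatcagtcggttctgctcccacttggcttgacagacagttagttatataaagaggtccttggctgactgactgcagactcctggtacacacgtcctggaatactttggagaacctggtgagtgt
TGANTCA, which reads the same on both strands, was present in 10 of the 23 silent genes with a window (43.5%), against 7.93% of all 27025 genes with a window. It was in none of the windows of the replication and mitosis lists, and 3 of 50 transporter windows (6%) held it. Whether AP-1 binds there in these cells was not tested.

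Factors of AP-1 and other immediate early genes rose in 13 of 28 tested cases and 6 fell (median 0.66), with the share that rose near the 38.9% of all tested genes. Beside Fosl1, Fosl2 had 109, 109 and 98.99 CPM on day 2, against 8.85, 11.7 and 8.62 CPM on day 0, and Maff, a small bZIP factor, 62.7, 48.6 and 60.4 CPM on day 2 against 0.426, 1.15 and 0.770 CPM on day 0. Klf5, a zinc finger factor of growing epithelia, had 196, 185 and 194 CPM on day 2, against 2.18, 1.66 and 3.39 CPM on day 0. Fos and Etv5 were lower. Fos had 309, 667 and 252 CPM on day 0, 59.0, 98.97 and 35.8 CPM on day 1 and 14.3, 10.7 and 8.49 CPM on day 2. On day 0, replicate B held far more than A and C. Against day 1, 10 of these genes were lower and 1 higher, beside 17.5% lower and 17.0% higher over all tested genes.

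Targets of YAP and TAZ, factors that answer to stretch and stiffness, rose in 13 of 19 tested cases and 2 fell (median 2.24). Over all tested genes 38.9% rose and 35.3% fell. Ankrd1 had 0.805, 0.432 and 0.462 CPM on day 0, 36.0, 36.5 and 26.7 CPM on day 1 and 68.3, 87.2 and 75.7 CPM on day 2 and was higher on each later day, whereas Ajuba, a LIM protein of the pathway, and Gadd45b stood at 633% and 1763% of day 0. Nt5e and Nuak2 fell, and Crim1, Arhgef17, Wwc1 and Dlc1 did not pass. Genes of extracellular matrix and adhesion rose in 29 of 39 cases and 4 fell (median 1.78). Of these 39, 16 were higher and 4 lower against day 1, beside 17.0% and 17.5% of all tested genes. Lamb3, a chain of laminin-332, which anchors keratinocytes, had 0.805, 0.972 and 1.23 CPM on day 0, 93.4, 67.3 and 98.6 CPM on day 1 and 204, 205 and 228 CPM on day 2. Itga3, a subunit of its receptor, had 413, 549.8 and 416 CPM on day 2, against 34.7, 31.5 and 33.8 CPM on day 0. Against both earlier days, both genes were higher on day 2 without overlap. Lama1, a laminin chain of the tubule basement membrane, fell to 2.29, 1.12 and 1.25 CPM on day 2, against 15.5, 15.2 and 17.5 CPM on day 0, and Timp3, a protease inhibitor bound to matrix, to 5.64%.

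Junction genes are a further part of the epithelial state. Of 31 tested genes of junctions and polarity 21 rose and 5 fell (median 0.90), beside 38.9% higher and 35.3% lower over all tested genes. Tjp1, the scaffold ZO-1, rose, with 146, 162 and 138 CPM on day 2, against 43.6, 49.2 and 37.6 CPM on day 0. Cldn7, a claudin of distal and many other epithelia, had 214, 283 and 214 CPM on day 2, against 35.7, 31.4 and 42.0 CPM on day 0. Cldn2, the cation pore of the leaky proximal tubule, had 9.93, 4.33 and 8.42 CPM on day 2, against 1014, 926 and 839 CPM on day 0. These claudins moved in opposite directions, and the gap junction gene Gjb2 fell to 7.68% of day 0. The members that did not pass were Cldn6, Cldn12, Cdh6, Ocln and Ctnnb1.

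Over days 0, 1 and 2, genes of growth metabolism were in part highest on day 1. Myc, a factor that drives ribosome and nucleotide synthesis, had 12.5, 15.2 and 8.32 CPM on day 0, 385, 470.0 and 402 CPM on day 1 and 224, 244 and 278 CPM on day 2. Of 22 tested genes of the MYC network and ribosome biogenesis 17 rose and 2 fell against day 0 (median 1.53), and 10 fell and 1 rose against day 1. Over all tested genes, 38.9% were higher and 35.3% lower against day 0, and 17.0% higher and 17.5% lower against day 1. Gnl3, a nucleolar GTPase, had 31.4, 30.9 and 27.5 CPM on day 0, 243, 268 and 226 CPM on day 1 and 129, 124 and 131 CPM on day 2, and Pes1, of ribosome assembly, 60.0, 61.7 and 57.8 CPM on day 0, 197, 200.04 and 191 CPM on day 1 and 156, 149 and 158 CPM on day 2. The MYC antagonists Mxi1 and Mxd1 fell against day 0, for Mxd1 not with library sizes alone, and Mycl, Max and Odc1 did not pass. Of 20 glycolysis genes, 11 rose and 1 fell (median 0.78; 4 to 17 higher over the settings tried). Pkm, pyruvate kinase, had 2355, 2422 and 1937 CPM on day 2, against 552, 391 and 544 CPM on day 0, and Slc16a3, the lactate exporter MCT4, had 0.852, 0.432 and 1.08 CPM on day 0, 259, 258 and 281 CPM on day 1 and 103, 28.4 and 49.0 CPM on day 2. Pfkm, the muscle-type phosphofructokinase, fell to 8.91%.

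Of 19 NRF2 targets, which defend against oxidants, 12 rose and 2 fell against day 0 (median 1.13), while 12 fell and 1 rose against day 1. The shares over all tested genes were 38.9% higher and 35.3% lower against day 0, and 17.0% and 17.5% against day 1. Hmox1, haem oxygenase, had 36.2, 34.4 and 42.3 CPM on day 0, 3403, 4218 and 2601 CPM on day 1 and 1181, 997 and 854 CPM on day 2. Of these days, day 1 was its highest. Pgd, of the pentose phosphate pathway, had 664, 539.6 and 530.3 CPM on day 2, against 125, 114 and 134 CPM on day 0, and the efflux pump Abcc1 199, 232 and 160.3 CPM on day 2 against 24.6, 20.9 and 26.2 CPM on day 0. Me1, malic enzyme, fell to 44.7% of day 0. Gclc, Ftl1, Fth1, Osgin1 and Prdx1 did not pass. Genes of the amino acid stress response and tRNA charging rose in 20 of 24 cases and 3 fell (median 2.23). Asns, asparagine synthetase, had 225, 302 and 288 CPM on day 2, against 4.45, 4.36 and 5.44 CPM on day 0, and Slc7a5, the large neutral amino acid transporter LAT1 of growing cells, 94.7, 157 and 149.6 CPM on day 2 against 5.02, 4.65 and 5.90 CPM on day 0. Its heavy chain Slc3a2, which also serves the tubule's own amino acid exchangers, fell to 61.1%, though not with library sizes alone. Cars, a tRNA synthetase, rose, Shmt2, of mitochondrial serine use, fell and Psph, of serine synthesis, did not pass.

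Cholesterol and fatty acid synthesis had no common direction, with 11 of 25 genes higher, 10 lower (6 with library sizes alone) and a median of 0.04 that changes sign between settings. Over all tested genes 38.9% were higher and 35.3% lower. Fasn, fatty acid synthase, had 143, 200.1 and 181 CPM on day 2, against 40.2, 37.6 and 34.8 CPM on day 0. Of the cholesterol pathway, the enzymes Nsdhl and Mvd fell to 23.1% and 27.2%. Mvk, Cyp51, Srebf2 and Scd2 did not pass. Interferon response genes rose in 7 of 26 cases and fell in 2, both below the shares of all genes (38.9% and 35.3%), and 12 rose with library sizes alone. Oasl1 had 1.56, 1.15 and 2.41 CPM on day 0, 82.0, 30.5 and 85.7 CPM on day 1 and 44.3, 19.2 and 44.6 CPM on day 2, and replicate B was the lowest in each day.

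Markers of other cells were followed beside these changes. Of 16 loop and distal tubule markers all fell (median log2 fold change -5.72). Umod, uromodulin of the thick ascending limb, had 2025, 1845 and 2399 CPM on day 0, 93.9, 148 and 70.5 CPM on day 1 and 21.3, 7.32 and 6.10 CPM on day 2. Of 16 collecting duct markers 15 fell (median -3.16), with summed CPM of 242, 247 and 233 on day 2 against 1838, 1764 and 2563 on day 0. Gata3, a factor of the collecting duct, did not pass. Red blood cell markers, 6 of 6 lower, summed to 2.96, 1.46 and 2.53 CPM on day 2, against 160.3, 151 and 294 CPM on day 0. Macrophage and myeloid markers summed to 49.8, 38.05 and 57.0 CPM on day 2, against 144, 114 and 282 CPM on day 0. Of 14 such markers 10 fell and 2 rose: C1qa, of resident macrophages, had 0.0955, 0.112 and 0.168 CPM on day 2, against 3.22, 1.66 and 5.85 CPM on day 0, whereas Cd68, a lysosomal protein, and Cd14, a receptor for bacterial products, rose. Lyz2 and Itgam did not pass.

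Fibroblast and pericyte markers summed to 112, 159.6 and 100.5 CPM on day 2, against 163, 192 and 186 CPM on day 0, and of 14 members 3 rose, 6 fell and Col1a1, Postn, Rgs5, Tagln and Des did not pass. Col3a1, a fibrillar collagen, had 20.9, 21.5 and 16.0 CPM on day 2, against 2.51, 2.12 and 3.39 CPM on day 0, Pdgfra, a fibroblast receptor, 7.35, 11.4 and 5.42 CPM on day 2 against 3.55, 3.49 and 1.59 CPM on day 0, and Dcn, decorin, 0.860, 0.747 and 0.876 CPM on day 2 against 1.94, 2.77 and 4.00 CPM on day 0. The rise of Pdgfra (log2 fold change 1.46 ± 0.46) did not pass without day 0 replicate C (1.17) or day 2 replicate B (1.13). With library sizes alone 5 of these markers rose. Endothelial markers summed to 224, 255 and 182 CPM on day 2, against 368, 392 and 308 CPM on day 0, with 2 of 15 higher and 5 lower (3 lower without day 0 replicate B, 2 lower with library sizes alone). Podocyte and parietal cell markers summed to 551, 631 and 510.4 CPM on day 2, against 621, 620.2 and 493 CPM on day 0. Of 12 such markers 3 rose, 4 fell and Podxl, Wt1, Ptpro, Pax2 and Ptgis did not pass. For the counts with TMM and all libraries, the shares over all tested genes were 38.9% higher and 35.3% lower. With library sizes alone, 9894 of 18754 tested genes were higher and 4802 lower. Without day 0 replicate B, 6921 of 19214 were higher and 6410 lower. The medians of the endothelial and podocyte lists change sign between settings, and the part of any of these cells in the results was not tested.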

How the data were processed

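RNA-seq libraries of 6 culture days, with 3 replicates each, were used. The authors deposited 1 table of estimated counts and 1 of TPM per gene. Per the submitters' processing notes, RSEM 1.3.3 was used with GRCm38, together with STAR 2.7.8a, FastQC 0.11.8 and cutadapt 2.3. Neither the annotation release nor the strand setting is given in these sources. For 878 values the count was 0 and the TPM above 0.

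Estimated counts were rounded, and 5 reporter transgenes with 0 counts were left out. edgeR 4.0.16 (R 4.3.3) fitted a quasi-likelihood model with 1 mean per day to all 18 libraries after filterByExpr (18754 genes) and TMM scaling, with a prior count of 2 and Benjamini-Hochberg adjustment over all genes. A single gene tested by exact permutation, 3 libraries against 3, cannot go below p = 0.1. Retained percent is the mean TMM-scaled CPM of day 2 over that of day 0. A count of 0 was set to 3 counts over the day 0 libraries for lower bounds, and intervals and floors cover counting error only. Promoters are RefSeq sequence.

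Named genes are a fixed set, the largest changes on each contrast, the highest and lowest retained percents, the highest silent genes and the members of each list with the smallest adjusted p; some of them are not reported here. Members and lists were chosen with earlier results of these data known. DESeq2 1.42.0, limma 3.58.1 on log2(TPM + 1) and log2(TPM + 0.1), other scalings, filters and single libraries left out were alternatives. On data simulated for the libraries of days 0 and 2 alone (17258 genes), the same method was fitted to these days only. It called 12, 28, 43 and 49 of 50 genes changed by 1.5, 2, 4 and 8-fold, with 6 false calls. Few genes were changed there, with as many raised as lowered. Most genes differed in the real comparison, so these numbers do not carry over to the fit of all 18 libraries. Figures were drawn with Python 3.11.15 and matplotlib 3.10.9.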

Additional observations from a re-analysis of the deposited data

How the results depend on the processing

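Only the 3 libraries of a day bear on each mean, where they came from is not known, and low genes are limited by depth. With glmTreat against a fold of 2, 3336 genes were higher on day 2 and 3726 lower against day 0, with 407 and 644 against day 1. Against day 0, limma on log2(TPM + 0.1) and log2(TPM + 1) called 3836 and 3877 lower. Against day 1, library sizes alone called 5492 higher and 2185 lower, limma on log2(TPM + 0.1) 5376 and 1775, on log2(TPM + 1) 5288 and 1832, and on log2(TPM + 1) with no filter 5063 and 1930. With 1 library of day 0, 1 or 2 left out, 6782 to 7472 genes were higher and 6402 to 6748 lower against day 0. For day 2 against day 1 the ranges were 2390 to 3126 higher and 2487 to 3349 lower. Without day 7 replicate C, which is in none of these groups, 7774 were higher and 7046 lower against day 0. That fit called 4085 higher and 4179 lower against day 1. Median retention was 5.94% from library-size CPM and 6.20% from TPM for the transporters, and 13.9% and 15.1% for all differentiated lists. Silent genes numbered 20 with no day 0 count, 136 from 1 CPM, 9 from 50 CPM and 80 by TPM. The cause of these shifts was not tested.

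Whether the replicate letters pair the samples cannot be decided from so few pairs. Deviations of day 2 and day 0 libraries correlated at 0.069, -0.089 and 0.014 for A, B and C. Those of day 2 and day 1 libraries correlated at 0.028, 0.12 and 0.42. In neither comparison was every pair above 0.1. Between different letters the values ran from -0.087 to 0.071 for day 2 and day 0. For day 2 and day 1 they ran from -0.40 to 0.29. With the replicate block, 7278 genes were higher and 6633 lower against day 0, and 3248 and 3315 against day 1.

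Of 5291 values of 241 named genes under the alternatives, 4915 kept their direction and side of the threshold, 43 lost and 188 gained a call and 145 changed sign. Of 839 list medians, 12 changed sign. Of the genes that changed sign, Ezr was the one called in the report; the cause was not tested. Their values follow. With library sizes alone, the log2 fold change was 0.12 for the endothelial markers median, 0.11 for the podocyte and parietal cell markers median, 0.20 for Abcb1a, 0.48 for Abcb1b, 0.41 for Ap2a1, 0.43 for Arhgef17, 0.28 for Ccnd2, 0.12 for Cdh6, 0.14 for Cdkn2d, 0.42 for Ctnnb1, 0.15 for Cyp51, 0.30 for Ehd1, 0.18 for Ephx1, 0.42 for Ftl1, 0.46 for Gata3, 0.30 for Gclc, 0.34 for Krt10, 0.40 for Krt23, 0.23 for Mvk, 0.31 for Ocrl, 0.069 for Pax2, 0.14 for Podxl, 0.32 for Postn, 0.51 for Psph, 0.43 for Slc20a2, 0.46 for Slc36a1 and 0.28 for Wt1. With limma on log2(TPM + 0.1), the log2 fold change was 0.12 for the endothelial markers median, 0.14 for the podocyte and parietal cell markers median, 0.29 for Abcb1a, 0.61 for Abcb1b, 0.49 for Ap2a1, 0.46 for Arhgef17, 0.32 for Ccnd2, 0.21 for Cdh6, 0.18 for Cdkn2d, 0.47 for Ctnnb1, 0.21 for Cyp51, 0.091 for Cyp7b1, 0.40 for Ehd1, 0.31 for Ephx1, 0.054 for Ezr, 0.49 for Ftl1, 0.44 for Gata3, 0.36 for Gclc, 0.43 for Krt10, 0.56 for Krt23, 0.39 for Mvk, 0.45 for Ocrl, 0.14 for Pax2, 0.14 for Podxl, 0.46 for Postn, 0.28 for Psph, 0.50 for Slc20a2, 0.74 for Slc36a1, 0.19 for Wt1 and 0.072 for Wwc1. With limma on log2(TPM + 1), the log2 fold change was 0.10 for the endothelial markers median, 0.14 for the podocyte and parietal cell markers median, 0.24 for Abcb1a, 0.57 for Abcb1b, 0.47 for Ap2a1, 0.42 for Arhgef17, 0.28 for Ccnd2, 0.15 for Cdh6, 0.17 for Cdkn2d, 0.47 for Ctnnb1, 0.20 for Cyp51, 0.057 for Cyp7b1, 0.39 for Ehd1, 0.31 for Ephx1, 0.054 for Ezr, 0.49 for Ftl1, 0.42 for Gata3, 0.36 for Gclc, 0.42 for Krt10, 0.42 for Krt23, 0.36 for Mvk, 0.38 for Ocrl, 0.090 for Pax2, 0.14 for Podxl, 0.083 for Postn, 0.27 for Psph, 0.49 for Slc20a2, 0.64 for Slc36a1, 0.16 for Wt1 and 0.072 for Wwc1. With limma on log2(TPM + 1) and no filter, the log2 fold change was 0.13 for the endothelial markers median, 0.12 for the podocyte and parietal cell markers median, 0.24 for Abcb1a, 0.57 for Abcb1b, 0.47 for Ap2a1, 0.42 for Arhgef17, 0.28 for Ccnd2, 0.15 for Cdh6, 0.17 for Cdkn2d, 0.47 for Ctnnb1, 0.20 for Cyp51, 0.057 for Cyp7b1, 0.39 for Ehd1, 0.31 for Ephx1, 0.054 for Ezr, 0.49 for Ftl1, 0.42 for Gata3, 0.36 for Gclc, 0.42 for Krt10, 0.42 for Krt23, 0.36 for Mvk, 0.38 for Ocrl, 0.090 for Pax2, 0.14 for Podxl, 0.083 for Postn, 0.27 for Psph, 0.49 for Slc20a2, 0.64 for Slc36a1, 0.16 for Wt1 and 0.072 for Wwc1. With DESeq2's Wald test, the log2 fold change was -0.064 for the cholesterol and fatty acid synthesis median, -0.090 for Clcn5 and -0.064 for Srebf2. With DESeq2 size factors, the log2 fold change was -0.064 for the cholesterol and fatty acid synthesis median, -0.090 for Clcn5 and -0.064 for Srebf2. With mitochondrially encoded genes left out, the log2 fold change was 0.0041 for Abcb1b and 0.032 for Psph. With no filter on low counts, the log2 fold change was -0.0051 for Clcn5. With the replicate block, the log2 fold change was 0.0057 for Cdkn2a. With the libraries of days 2 and 0 alone, the log2 fold change was -0.019 for Clcn5. With 1 library left out, it ranged from -0.035 to 0.15 for the cholesterol and fatty acid synthesis median, -0.26 to 0.19 for Abcb1b, -0.19 to 0.0028 for Arhgef17, -0.51 to 0.014 for Ccnd2, -0.039 to 0.053 for Clcn5, -0.020 to 0.38 for Dlc1, -0.20 to 0.00042 for Ftl1, -0.28 to 0.11 for Gata3, -0.32 to 0.39 for Krt23, -0.34 to 0.58 for Max, -0.087 to 0.26 for Osgin1, -0.38 to 0.22 for Postn, -0.10 to 0.21 for Psph, -0.13 to 0.49 for Ptpro, -0.093 to 0.031 for Slc36a1, -0.095 to 0.91 for Slc6a12 and -0.035 to 0.15 for Srebf2.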
